A study of Mus musculus with 2 samples.

Results

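The GIMAP genes (GTPases of immunity-associated proteins) were read on 2 oligonucleotide arrays, 1 hybridised with RNA of Miz1 knockout thymocytes and 1 with RNA of wild-type thymocytes. All probe sets whose annotated symbol was exactly Gimap1, Gimap3, Gimap4, Gimap5, Gimap6, Gimap7, Gimap8 or Gimap9 were taken. These were 11 probe sets of 8 genes, out of 45037 non-control probe sets and 18193 named genes. Both samples were sorted DN3 cells, T cell precursors of the thymus that carry CD25 and neither CD44 nor lineage markers, on a C57BL/6 background. The knockout sample came from Miz1-delta-POZ mice, whose Miz1 protein, encoded by Zbtb17, lacks the POZ domain through which such zinc finger factors form complexes. The sources used here do not give the driver of the deletion or the age, sex and number of animals behind each array. The comparison addresses what loss of Miz1 activity does to gene expression in DN3 cells, and with 1 array per genotype every difference is a description with no test and no error between animals.

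GIMAP proteins are small GTPases of lymphocytes that sit mostly on intracellular membranes. Mice or rats that lack some of them lose mature T cells, and several members have been tied to the BCL2 family, which decides between cell survival and death. Gimap5 is the best known, since its loss causes lymphopenia, and Gimap3 is its closest relative and acts beside it in T cell survival. Gimap1 is needed for mature T and B cells, Gimap4 affects the pace of T cell death, and Gimap6 binds the autophagy protein encoded by Gabarapl2. In the mouse the genes form a single cluster.

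The labels were checked on the arrays first. Zbtb17 read 1361 in knockout cells and 3042 in wild-type cells by its brighter probe set, and 610 and 47.6 by the other, whose mean was below the median of all values. The sources used here do not say where these probes lie relative to the deleted part, so Zbtb17 checks nothing about the genotype. All 10 markers listed for DN3 cells were measured, and the summed signal of their brightest probe sets was 223372 for knockout cells and 171986 for wild-type cells. The animals differed in sex: Xist, the RNA that coats the inactive X chromosome, read 55300.0 in knockout cells and 423 in wild-type cells by its brightest probe set, so sex and genotype cannot be told apart in any value below.

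Of the 6 GIMAP genes whose mean signal was above background, 1, Gimap3, was lower in the knockout by at least 2-fold. None was higher by that much. The knockout value of Gimap3 was under background, so this gene counted as measured through its wild-type value alone. The 3 members with clear signal on both arrays, Gimap1, Gimap6 and Gimap9, differed by at most 1.21-fold between genotypes. Gimap8 was 1.72-fold lower in the knockout, Gimap5 was close to background on both arrays, and Gimap4 and Gimap7 were not measured above it. Signals below a floor of 394, the median of all non-control values of both arrays, were raised to it before the log2 ratio of knockout over wild type was taken. A gene was called measured when the mean of its brightest probe set exceeded the floor, which held for 6 of the 8 members. Among these 6, none was past 2-fold on the high side in the knockout, against 7.23% of all 10770 measured genes. In the other direction 1 member passed, against 5.65% of all measured genes. A count of 1 among 6 genes is too small to be read as a share. The median log2 ratio of the 6 was 0.03, beside 0.00021 over all measured genes, with 3 members above 0 and 3 below, and it turned to -0.12 under median centring, -0.03 under quantile and -0.03 under loess normalization. With the floor at the lower quartile all 8 members counted as measured, and their median was -0.40, beside 0.02 over all genes. In that setting Gimap4 and Gimap7 were read at -0.73 and -0.84, while their dimmer probe sets, also measured there, gave 0.86 and 1.91. Median centring lowered the median of all measured genes by a log2 shift of -0.16 and changed the shares past 2-fold to 5.25% higher and 8.60% lower.

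**Figure D1:**
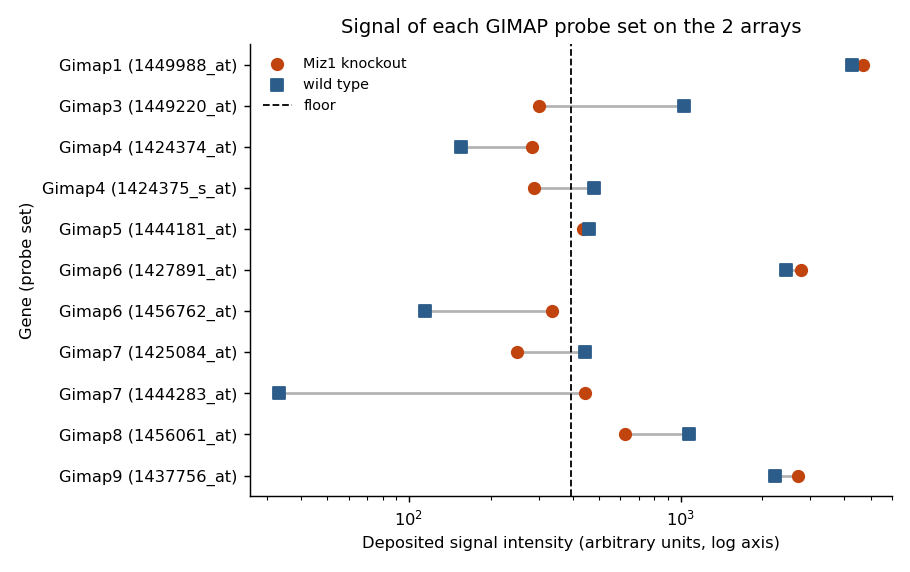
Deposited signal intensity (arbitrary units, log axis) of each of the 11 GIMAP probe sets in the Miz1 knockout (circles) and the wild type (squares), with the floor of 394 as a dashed line. Gimap1, 1 Gimap6 probe set and Gimap9 lie well above the floor on both arrays, Gimap3 lies below it in the knockout only, and 5 probe sets have a mean below it.

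Gimap1, whose product is required by mature lymphocytes, read 4697 in knockout cells and 4267 in wild-type cells. This was 1.10-fold higher, a log2 ratio of 0.14. Its ratio was -0.02 after both arrays were centred on the same median, so the values give no direction for this gene.

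Gimap6, the member linked to autophagy, read 2774 in knockout cells and 2451 in wild-type cells by its brighter probe set, a log2 ratio of 0.18. Its second probe set read 337 and 114, below the floor on both arrays. That second value therefore gave no ratio at the floor used, although on the values as deposited it was 2.95-fold higher in the knockout. The 2 probe sets of Gimap6 thus differed in what they could show, and the brighter one was the basis for the gene.

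Gimap9 read 2695 in knockout cells and 2220.2 in wild-type cells, 1.21-fold higher, with a log2 ratio of 0.28. Differences of this size were common among bright genes. Of 4372 genes above 4 times the floor on both arrays, 40.3% had a log2 ratio no farther from 0 than that of Gimap9, and 92.9% lay within 2-fold. In that bright class, 2.74% of genes passed 2-fold on the high side and 4.37% on the low side. The spread between measured probe sets of a single gene on these arrays had a root mean square SD of 0.57 on the log2 scale over 4514 genes, and the ratios of Gimap1, Gimap6 and Gimap9 were all smaller than that. This SD covers noise within the pair of arrays and differences between transcripts of a gene, not differences between animals. It takes in dim probe sets too and is a wide limit for bright genes. In the bright class the median size of the log2 ratio was 0.36.

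Gimap3 read 302 in knockout cells and 1029.5 in wild-type cells. The knockout value was under the floor while the wild-type value was above it, so the difference is a bound, at least 2.61-fold lower, with a log2 ratio of -1.39. Gimap3 has 1 probe set, so no second measurement on these arrays bears on it. Its mean signal was 1.69 times the floor, in the dim part of the range. Of 3204 measured genes with a mean under 2 times the floor, 5.99% passed 2-fold on the low side and 9.58% on the high side. A log2 ratio as low as that of Gimap3 or lower was found in 1.03% of those dim genes and in 1.48% of all measured genes. These shares are no test, since Gimap3 was the measured member with the lowest ratio. A mean under 2 times the floor also limits how large a floored ratio can be in the dim class. With the floor raised to the 60th percentile of all values the ratio was -0.90, short of 2-fold, and in the other settings it lay between -1.77 and -1.39. Where a gene at least 2-fold lower in the knockout had a second measured probe set, as 238 genes did, that probe set was also at least 2-fold lower for 22.7% and had a negative ratio for 72.3%.

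Gimap8, which carries several GTPase domains in 1 protein, read 624 in knockout cells and 1076 in wild-type cells, both above the floor. The log2 ratio was -0.79, which is 1.72-fold lower and below the 2-fold limit. Across scalings the Gimap8 ratio stayed between -0.94 and -0.79. Both of its values lay above every floor tried, so the floor settings could not change the ratio. Like Gimap3, Gimap8 rests on 1 probe set. Gimap8 and Gimap3 stand at opposite ends of the gene cluster.

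**Figure D2:**
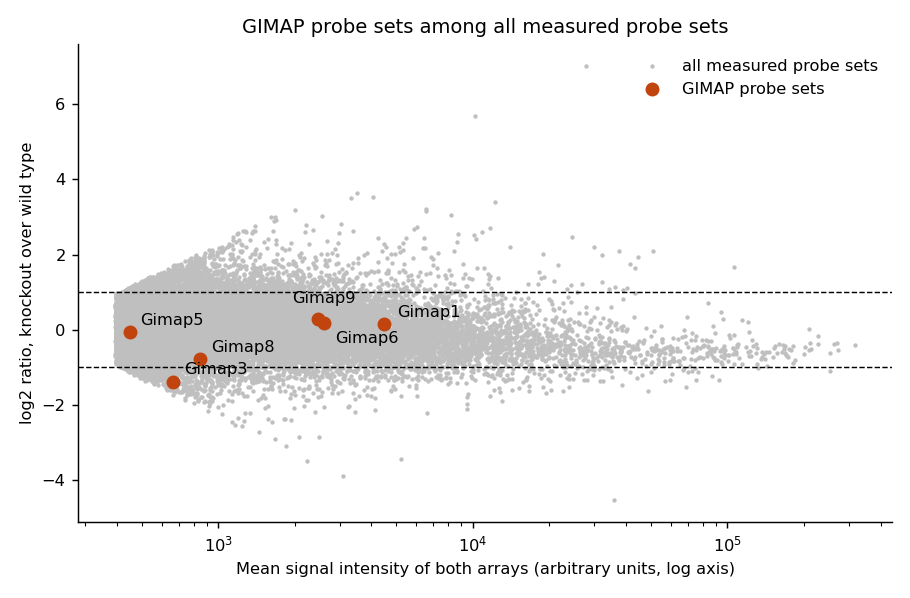
log2 ratio of knockout over wild type against mean signal (arbitrary units, log axis) for all measured probe sets (grey) and the 6 measured GIMAP probe sets (filled circles), with dashed lines at 2-fold. Gimap3 at -1.39 lies below the lower line among dim probe sets, Gimap8 at -0.79 lies above it, and Gimap1, Gimap6 and Gimap9 sit near 0.

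Gimap5, the member best known for the lymphopenia that follows its loss, read 437 in knockout cells and 459.6 in wild-type cells. Both values were just above the floor, and the log2 ratio was -0.07. A signal so close to background limits what a ratio can show, so a difference in Gimap5 was not detectable here and its absence is not shown. Gimap3 and Gimap5 are related in sequence, and older annotation used the name Gimap5 for Gimap3 as well. Neither probe set carries an identifier that marks shared sequence, and whether either also detects the other gene was not tested.

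Gimap4, whose product speeds the death of T cells once it has begun, had 2 probe sets with means below the floor. The first gave 284 in knockout cells and 156 in wild-type cells, and the second read 289 and 479. The probe sets pointed opposite ways on the deposited values, with log2 ratios of 0.86 and -0.73, so no direction can be given for Gimap4.

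Gimap7, a member with strong GTPase activity, also had 2 probe sets below the floor by their means. The first gave 249 in knockout cells and 446 in wild-type cells, and the second gave 444 and 33.3. Again the deposited values pointed opposite ways, with log2 ratios of -0.84 and 3.74. The latter, a 13.4-fold ratio, shrank to a log2 ratio of 0.17 once the wild-type value was raised to the floor.

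**Figure D3:**
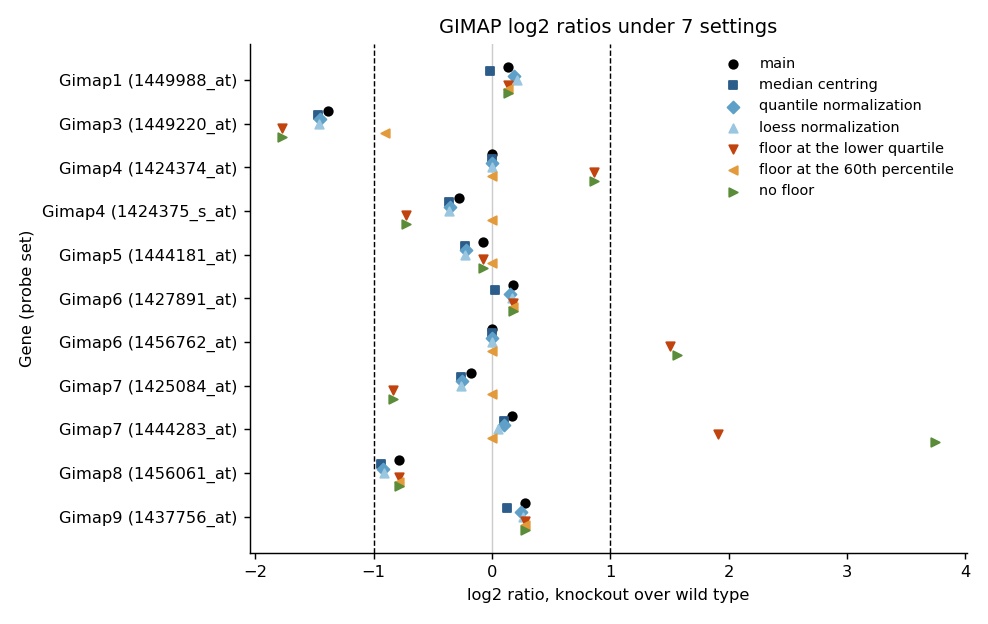
log2 ratio of knockout over wild type for the 11 GIMAP probe sets under the main setting and 6 alternatives of scaling and floor (1 marker per setting), with dashed lines at 2-fold. Gimap1, Gimap5, Gimap8, Gimap9 and the brighter Gimap6 probe set stay in a narrow range. Of these, all but Gimap5 lie above every floor, so the floor settings could not move them. The dim probe sets of Gimap4, Gimap6 and Gimap7 and that of Gimap3 move with the floor, the last from -1.77 to -0.90.

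The sequences upstream of Gimap1, Gimap5 and Gimap3 are given because these genes stand next to each other at 1 end of the cluster and read differently: bright on both arrays, near background on both, and lower in the knockout. Each run is the 250 bases before the annotated gene start, from RefSeq's GRCm38.p6 mouse assembly, 5' to 3' on the strand of the gene. The windows are chr6:48738797-48739046 on the plus strand for Gimap1, chr6:48745947-48746196 on the plus strand for Gimap5 and chr6:48770852-48771101 on the minus strand for Gimap3. Capitals mark matches, on either strand, to CACCC (a core bound by KLF factors) or TGTGGT (a core bound by RUNX factors).
Gimap1: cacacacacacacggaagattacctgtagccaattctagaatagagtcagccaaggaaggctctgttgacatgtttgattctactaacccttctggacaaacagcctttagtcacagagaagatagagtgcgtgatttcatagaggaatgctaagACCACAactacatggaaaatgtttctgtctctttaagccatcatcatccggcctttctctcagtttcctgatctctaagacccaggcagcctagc
Gimap5: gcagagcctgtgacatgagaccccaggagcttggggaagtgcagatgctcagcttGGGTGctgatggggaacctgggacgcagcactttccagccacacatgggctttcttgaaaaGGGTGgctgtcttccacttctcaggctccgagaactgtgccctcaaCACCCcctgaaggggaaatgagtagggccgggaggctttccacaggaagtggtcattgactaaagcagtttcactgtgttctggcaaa
Gimap3: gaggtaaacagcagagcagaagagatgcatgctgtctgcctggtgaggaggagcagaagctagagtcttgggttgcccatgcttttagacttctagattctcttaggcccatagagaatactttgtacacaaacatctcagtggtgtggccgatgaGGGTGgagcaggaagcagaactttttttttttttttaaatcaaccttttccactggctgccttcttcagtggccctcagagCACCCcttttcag

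All 8 members had a promoter window of 300 bases, 250 before to 50 after the start, in the RefSeq table, and Gimap8 had 2, which made 9 windows. Searched on both strands, CACCC was found in windows of 5 members, Gimap3, Gimap4, Gimap5, Gimap8 and Gimap9, against 57.5% of all 32817 windows in the table. TGTGGT was found for 3 members, Gimap1, Gimap4 and Gimap7, against 16.8% of all windows. TGGGAA, the core bound by the Notch partner RBPJ, was found in the Gimap3 window alone, against 25.6% of all windows. That match lies after the Gimap3 start, from position 23, and overlaps a CACCC match that begins at position 27. The core of the interferon-stimulated response element (3.43% of all windows), CACGTG (the E-box of MYC and MAX, 7.15%) and ATCGAT (0.926%) were found in no member window. The median number of CpG dinucleotides was 4 in the 9 member windows and 7 over all windows, and the median GC content was 48% and 52.7%. Such matches describe letters in these windows and say nothing of binding.

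The neighbours of the cluster were measured on the same arrays. Of 133 other RefSeq genes that start within 1 Mb of it on chromosome 6, 31 had a probe set and 21 were measured. Past 2-fold were 3 of the 21 on the high side and 1 on the low side, with a median ratio of 0.35 on the log2 scale. The background shares were the same 7.23% and 5.65%. Repin1, which encodes a zinc finger protein and lies on the Gimap8 side, read 4712 in knockout cells and 1631 in wild-type cells, 2.89-fold higher. Both measured Repin1 probe sets passed 2-fold, with log2 ratios of 1.53 and 1.38. Tmem176b, a membrane protein gene on the Gimap3 side, read 13199 and 5125, 2.58-fold higher. Its neighbour Tmem176a had a log2 ratio of 0.35 by its brightest probe set, and 1.94 and 2.01 by the others. Zfp467, another zinc finger gene, was at least 2.04-fold higher by its brightest probe set and had a log2 ratio of -0.16 by its second measured one. Zfp282 was at least 2.47-fold lower, at 324 against 972. Zfp775 and AI854703, which lie between Repin1 and Gimap8, were within 2-fold, with log2 ratios of 0.61 and 0.17. These neighbours past 2-fold were named for their size.

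**Figure D4:**
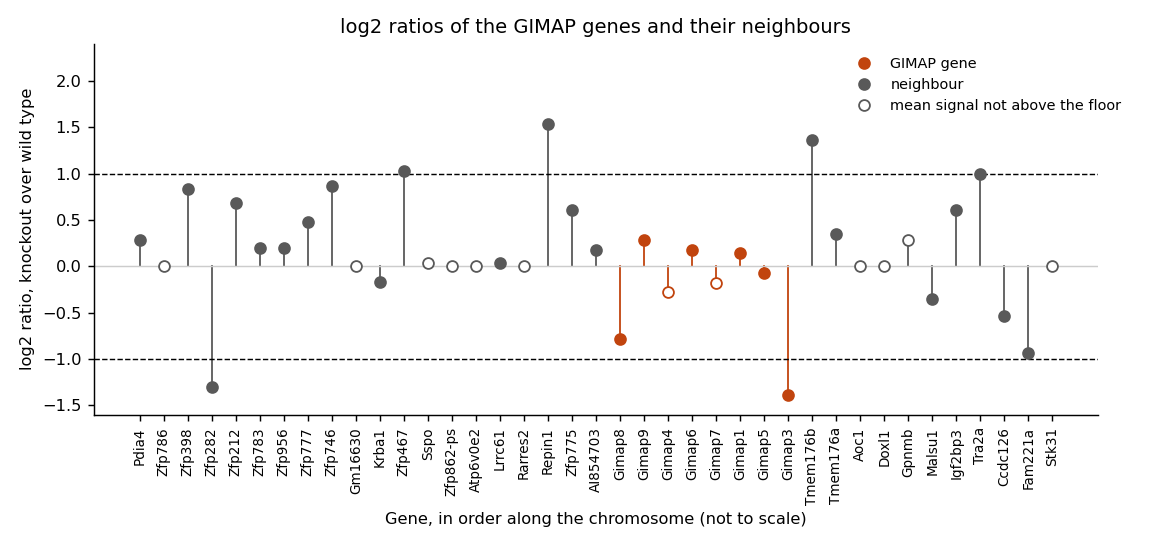
log2 ratio of knockout over wild type for the GIMAP genes and the 31 neighbours with a probe set, in their order along the chromosome and not to scale, with dashed lines at 2-fold. Open circles mark genes whose mean signal was not above the floor. Next to the GIMAP genes lie AI854703 at 0.17 and Zfp775 at 0.61 on the left, followed by Repin1 at 1.53, and Tmem176b at 1.36 on the right, while the highest GIMAP gene is Gimap9 at 0.28.

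Of 8 genes listed as reported partners of GIMAP proteins, 7 were measured and Bax was not analysed here. None of the 7 passed 2-fold in either direction by its brightest probe set, and their median log2 ratio was -0.24. Bcl2, which encodes a survival protein reported to bind Gimap5, read 7212 in knockout cells and 3773 in wild-type cells, a log2 ratio of 0.93. The other 4 Bcl2 probe sets gave ratios from 1.13 to 1.99, all past 2-fold. Bcl2l11, the death gene Bim, had a log2 ratio of 0.81 by its brightest probe set and 1.38, past 2-fold, by the next brightest. Gsk3b, a kinase that Gimap5 restrains, had 0.46. Bcl2l1, the survival gene Bcl-xL, had -0.38, the death effector gene Bak1 -0.63, and Gabarapl2, the autophagy partner of Gimap6, -0.24. Bad, a death gene, had -0.86 by its brighter probe set and 0.89 by the other. The sign of the list's median turned to 0.11 with a floor at the 60th percentile and to 0.02 with the mean of probe sets.

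Lists of genes of T cell programmes are set beside the GIMAP genes as counts, without a test. In the list of naive T cell survival and egress, 6 of 10 genes were measured, 2 of them past 2-fold on the high side and none on the low side. Their median was 0.92 on the log2 scale, and 1 passed under median centring. These counts read each gene by its brightest probe set. By other measured probe sets Il7r at 1.44, Foxo1 at 1.79 and 2.11 and Foxo3 at 1.34 also passed 2-fold, while Lef1 had 0.46. Klf2, a factor that holds T cells in quiescence, read 1051 against 162, at least 2.67-fold higher, and Bach2, a repressor of effector genes, was 2.03-fold higher. Of 8 Notch receptors and targets, 7 were measured and 2 were at least 2-fold higher, Dtx1 at 5.09-fold and Il2ra at 4.61-fold, with none 2-fold lower and a median of 0.88. Of 12 T cell identity genes, 10 were measured and 2 were at least 2-fold higher, Cd3g at 2.17-fold and Cd3d at 2.14-fold, with none lower and a median of 0.09. Under median centring none of these identity genes passed 2-fold. The share of all measured genes past 2-fold on the high side, 7.23%, is the background of these counts.

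**Figure D5:**
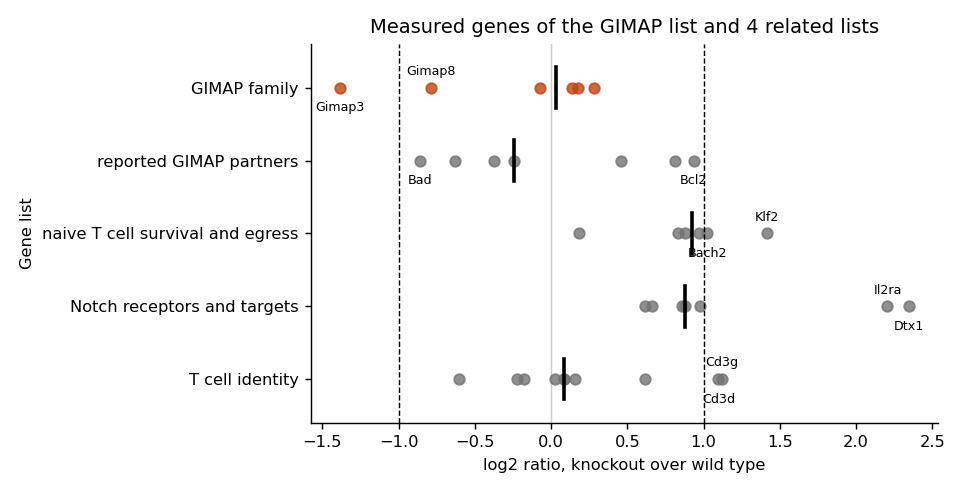
log2 ratio of knockout over wild type for the measured genes of the GIMAP family and of 4 related lists (points, 1 per gene) with the median of each list (vertical bars) and dashed lines at 2-fold. The GIMAP median is 0.03, that of the partners -0.24, that of the naive T cell genes 0.92, that of the Notch genes 0.88 and that of the T cell identity genes 0.09.

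By closeness of the log2 ratio, the named genes most like Gimap3 were Spc25 at -1.40, Cdca5 at -1.37 and Chek1 at -1.37. They were chosen from 3280 genes with at least 2 measured probe sets and a brighter array of at least 4 times the floor. Gimap3 itself meets neither limit, with 1 probe set and a brighter value of 1029.5. Its ratio of -1.39 is a bound set by the floor and was -1.77 on the deposited values, so the match depends on the floor. Over 2 arrays the likeness is that of a single ratio.

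Markers of other cells are given beside these values, each gene by its brightest probe set, against background shares of 7.23% of measured genes past 2-fold on the high side and 5.65% on the low side. Mature T cells, which carry more GIMAP transcripts than precursors, were marked by a list of 9 genes, of which 4 were measured. Klf2 and Ctla4 passed 2-fold on the high side, Cd6 had a log2 ratio of -0.79, S1pr1 and Cd40lg were under the floor on both arrays, and the summed signal was 17151 in knockout and 9586 in wild-type cells. Gamma-delta T cells had 6 measured markers, of which Trgv4 and Maf were 3.13-fold and 2.44-fold higher. Cd163l1 and Blk had log2 ratios of 0.67 and 0.21, and Sox13 and Il17a had -0.14 and -0.40. The sum was 76706 against 29450, most of it from Trgv4. Of the 5 measured genes of the double positive list, Cd53 alone passed 2-fold, at 5.43-fold higher, and Cd4 was under the floor on both arrays. The sum was 137009 against 147832, most of it from Dntt, which read 113525 in knockout and 137490 in wild-type cells. Of 7 measured early progenitor markers, Nfe2 and Mycn were 4.90-fold and 3.58-fold higher. Mef2c and Kit had log2 ratios of 0.42 and 0.14, and Spi1, Hhex and Bcl11a had -0.16, -0.20 and -0.80. Their list had a median of 0.14 and a sum of 10094 against 5754, with Cd34 and Gfi1b under the floor on both arrays. The 5 measured B cell markers were split: Ighm and Cd22 passed 2-fold on the low side, while Cd79b, Cd79a and Ms4a1 had log2 ratios of 0.90, 0.78 and 0.54. Their list had a median of 0.54 and a sum of 16388 against 31706, in which Ighm alone read 11340.0 and 28208. Both Pax5 probe sets were under the floor on both arrays. Myeloid markers numbered 5 measured, with 4 past 2-fold on the high side and a sum of 11507 against 3878. The 4 were Lyz1, Lyz2, Ctss and Csf1r, with log2 ratios of 3.03, 1.85, 1.26 and 1.19. The wild-type value of Ctss was under the floor, and Adgre1 had a log2 ratio of -0.05. By other measured probe sets Lyz1 had 0.87, short of 2-fold, and Csf1r had 0.05 and 1.37. Itgam, Mpo and S100a8 were under the floor on both arrays. Of 6 measured thymic stromal markers, Pdgfrb was higher by a log2 ratio of 2.20. Epcam, Col1a1 and Ccl25 had 0.93, 0.69 and 0.38, and Krt5 and Dll4 had -0.19 and -0.70. Foxn1, Krt8 and Psmb11 were under the floor on both arrays. The sum was 16013 against 7412, in which Pdgfrb read 8455 and 1840. NK and innate lymphoid cells had 5 measured markers, 2 of them past 2-fold on the high side. These were Nkg7 at a log2 ratio of 1.26 and Xcl1 at 1.05, the latter with its wild-type value under the floor. Prf1 had 0.86, and Gzma and Klrd1 had -0.50 and -0.79. Their summed signal was 22050 against 24067, most of it from Gzma, which read 13881 and 19641. The dendritic and the endothelial list had 2 measured markers each, none past 2-fold, with sums of 5479 against 6574 and 3841 against 3096. The part of these cell types in the Gimap3 value was not tested, and in bulk RNA fewer cells of a type and less RNA per cell cannot be told apart.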

How the data were processed

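Total RNA of sorted cells was amplified to biotin-labelled cRNA, per the labels' protocols. The table deposited by the authors holds a linear signal intensity for each probe set. The submitters' processing notes name GCOS 1.4, and the sources used here do not give its settings. Both arrays had a mean of 1000 after 2% of values was trimmed at each end. Of 45101 probe sets, 64 controls were left out. Of the remaining probe sets, 34945 had 1 gene symbol in the platform annotation, 932 had several and 9160 had none. Of those with 1 symbol, 34741 took the current symbol of their gene identifier in RefSeq (GRCm38.p6), which also gave gene order. The annotation names no build. Ratios, floor and calls were computed in Python 3.11.15 with pandas 2.3.3, and loess with statsmodels 0.14.6 (span 0.3). A call needed 2-fold after flooring and a brighter array above the floor. The code was tested on simulated data. The number of arrays limits the precision.

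The alternatives tried were centring on the median, quantile or loess normalization, floors at the 25th and 60th percentile, no floor, no probe sets of shared sequence, and the mean of probe sets. Named were all members and partners, up to 2 genes per direction past 2-fold of each other list, neighbours past 2-fold, and the 3 genes closest to the member with the largest ratio. Other second probe sets, Tmem176a and further genes of the marker lists were named after their values were seen. The members and lists were chosen with earlier results of these data known. A planned comparison of protein sequences was not made.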

Additional observations from a re-analysis of the deposited data

How the results depend on the processing

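No paired analysis was possible because there was 1 array per genotype, and no array could be left out. Of 210 values recomputed over 8 alternatives, 183 stayed within 1.5 times the count or within the SD between probe sets, and 27 moved. This tally is no measure of stability, since a change of floor cannot move ratios of probe sets above every floor. The SD of 0.57 is also a wide limit. Within it fell the Gimap3 ratio going from -1.39 to -0.90 and the members' median going from 0.03 to -0.40. Gimap3 was the single GIMAP gene at least 2-fold lower in every alternative except the floor at the 60th percentile, which left 0. No alternative made a GIMAP gene 2-fold higher by the rule per gene, which reads the brightest probe set or the mean of all. With the lower quartile floor, the dimmer probe sets of Gimap6 and Gimap7 were measured and past 2-fold higher, at 1.51 and 1.91. The members' median ran from -0.40 (lower quartile floor, 8 members measured) to 0.14 (60th percentile floor, 5 measured). Median centring shifted the median of all measured genes by -0.16, and the shares of genes higher and lower from 7.23% and 5.65% to 5.25% and 8.60%. Neighbours at least 2-fold lower numbered 2 under median centring, quantile and loess normalization, 6 with the lower quartile floor (where 5 were higher), 3 with no floor, and 0 with the 60th percentile floor or the mean of probe sets. Partners past 2-fold were 1 lower under median centring, and 1 higher under quantile, loess and the mean of probe sets. Of the naive T cell genes, 1 was higher under median centring and under the 60th percentile floor, and 1 was lower with the lower quartile floor. Notch genes at least 2-fold higher numbered 4 under quantile and loess normalization, and T cell identity genes 0 under median centring. Beyond the floor settings themselves, the cause of these moves was not tested. Signal near background limits Gimap3, Gimap4, Gimap5 and Gimap7.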
